A study of Mus musculus with 6 samples.

Results

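The VEGF family was followed through 9 genes in cells of mouse dorsal skin, 5 for receptors (*Kdr*, *Flt1*, *Flt4*, *Nrp1* and *Nrp2*) and 4 for ligands (*Vegfa*, *Vegfb*, *Vegfc* and *Pgf*). The genes were taken by symbol from the 32285 genes of the count tables, and all 9 had UMIs (unique molecular identifiers, each standing for 1 counted mRNA molecule) in each of the 6 libraries. Cells were sorted by flow cytometry for tdTomato, which recombination by Cdh5-CreERT2 switches on. They were freed of dead cells and sequenced on the 10x Chromium 3′ platform, 1 mouse per library and 2 mice (S1 and S2) per group. The telogen group was WT at PD20, in the resting phase of the hair cycle, and the anagen group was WT at PD32, in the growth phase. These 4 mice carried tdTomato, Cdh5-CreERT2 and Krt14-H2BGFP on a C57BL/6;CD1 background, and GFP-negative cells were sorted from them. The 2 Alk1 KO mice, in telogen at PD25, were Alk1 flox/flox with tdTomato and Cdh5-CreERT2 on C57BL/6. Their genotype label reads wild type, and the group was taken from their titles. All 6 mice had received tamoxifen at 200 µg per g at PD17. Alk1 KO therefore differed from telogen also in age, time since tamoxifen, strain and Krt14-H2BGFP. The paper describes the Alk1 KO data as a dataset of its authors' earlier study, so the experiment may differ too. None of these can be told apart from the loss of Alk1. Cdh5-CreERT2 acts in endothelial cells (ECs), and perineurial cells, the sheath cells of nerves, were also marked. The paper describes immune cells and fibroblasts in its sort as contaminating cells negative for *Cdh5*. Whether such cells had recombined, or had lost Alk1 in the Alk1 KO mice, was not tested.

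The libraries held 10615358 to 43317677 UMIs, and the filter (200 to 5000 genes and under 10% mitochondrial UMIs) kept 1713 to 5106 cells each, 20941 of 27418 barcodes in all. The Alk1 KO libraries were the smallest, with 1713 and 1958 cells. Any pair of libraries shared 2 to 13 barcodes. Cells were clustered without the VEGF genes and named from marker genes as Artery, Vein, Cap (capillary), Lymph-Col and Lymph-Cap (collecting and capillary lymphatic), Proli (proliferating), Perineurial, Pericyte, Schwann, Fibroblast, Myeloid, Mast and T-NK. EC-Lrat and EC-Prnd are EC clusters that no marker list named and that are called by a leading gene. EC-Il6 met the naming rule for the list of *Rgcc*-high capillaries, with 7 of its 8 markers, but *Rgcc* itself was the marker that did not pass, so the cluster is called by its marker *Il6* and kept apart from Cap. Levels are given as CPM (UMIs of the gene per 1000000 UMIs of that population and library). *Prox1*, the factor that specifies lymphatic ECs, was at 655 to 1216 CPM in lymphatic ECs of the 6 libraries. In blood ECs (Artery, Vein, Cap and EC-Il6 together) it was at 5.84 to 14.2 CPM. Clusters were named from marker genes, so these levels describe the lymphatic label and do not test it. *Acvrl1*, the gene of Alk1, was at 214 and 188 CPM in blood ECs of telogen, 165 and 175 in anagen and 166 and 160 in Alk1 KO. It fell in Cap, from 212 and 177 CPM in telogen to 114 and 111 CPM in Alk1 KO (log2 fold change -0.93, SE 0.19, adjusted p = 0.0024). Which exons were deleted is not given in the sources used here, so a 3′ tag may not check the deletion.

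VEGF-A, made by many tissues and raised by hypoxia, drives the growth and permeability of blood vessels through VEGFR2, the product of *Kdr*. VEGFR1, the product of *Flt1*, binds VEGF-A, VEGF-B and placental growth factor (the product of *Pgf*) tightly but signals weakly, and its soluble form holds VEGF-A away from VEGFR2. VEGF-C acts on VEGFR3, the product of *Flt4*, and is the main growth factor of lymphatic vessels. Neuropilin-1 is a co-receptor of VEGF-A in arteries and capillaries and neuropilin-2 one of VEGF-C in veins and lymphatics, and both also bind semaphorins. In skin the vessel bed is remodelled with the hair cycle, and keratinocytes, which were not in the sort, are a known source of VEGF-A. Alk1 is a receptor for BMP9 and BMP10, whose loss in ECs leads to malformed vessels. Gene-level 3′ counts do not separate soluble from membrane Flt1, nor the splice forms of *Vegfa*.

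The sequences just upstream of 4 members that fell in blood ECs of Alk1 KO are shown because ETS factors, which drive endothelial genes, and SMAD1 and SMAD5, which act below Alk1, bind known short motifs. The windows are from the RefSeq promoter table, build GRCm38.p6, read 5′ to 3′ on the gene's strand. Capitals mark GGAA, the core of ETS sites, or its reverse complement TTCC, and GGCGCC, an element bound by SMAD1 and SMAD5 that reads the same on both strands. *Kdr* lies on the minus strand (chr5:75978459-75978705, 247 bases ending 3 bases before the start site), as does *Flt1* (chr5:147726012-147726261), and *Nrp1* (chr8:128358823-128359072) and *Vegfc* (chr8:54077282-54077531) lie on the plus strand, with 250 bases each. The windows hold no exon of their own gene. In *Kdr*, *Flt1* and *Nrp1* the annotated gene starts further upstream, at another start site.
Kdr: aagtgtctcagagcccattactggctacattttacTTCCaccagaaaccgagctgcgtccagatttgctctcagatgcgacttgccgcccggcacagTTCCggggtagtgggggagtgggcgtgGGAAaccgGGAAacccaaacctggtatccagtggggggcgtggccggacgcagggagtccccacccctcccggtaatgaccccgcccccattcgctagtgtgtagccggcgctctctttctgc
Flt1: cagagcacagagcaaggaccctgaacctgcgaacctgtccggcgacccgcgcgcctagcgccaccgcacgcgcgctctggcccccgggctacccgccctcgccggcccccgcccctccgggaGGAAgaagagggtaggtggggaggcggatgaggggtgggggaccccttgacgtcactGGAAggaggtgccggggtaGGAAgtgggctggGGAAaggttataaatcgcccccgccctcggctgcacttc
Nrp1: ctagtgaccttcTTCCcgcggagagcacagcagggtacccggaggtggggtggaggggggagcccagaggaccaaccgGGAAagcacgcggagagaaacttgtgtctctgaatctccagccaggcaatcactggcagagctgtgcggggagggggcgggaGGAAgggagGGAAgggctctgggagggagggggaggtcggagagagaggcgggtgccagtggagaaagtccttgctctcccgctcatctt
Vegfc: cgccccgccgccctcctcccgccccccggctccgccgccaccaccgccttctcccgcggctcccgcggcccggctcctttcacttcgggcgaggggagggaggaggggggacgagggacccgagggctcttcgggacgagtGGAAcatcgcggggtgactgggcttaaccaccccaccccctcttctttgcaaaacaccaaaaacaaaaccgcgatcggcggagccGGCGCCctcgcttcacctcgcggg
The GGAA core occurred 4 times each in the windows of *Kdr*, *Flt1* and *Nrp1* and once in that of *Vegfc*. It was present in 93.4% of the 32851 promoter windows of 250 bases and is no mark of these genes. GGCGCC occurred once, in *Vegfc*, and in 9.59% of all windows. ACGTG, the core of the hypoxia response element, searched on both strands, was in none of the 4 and in 16.6% of all windows. A match of letters is not a bound site.

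In WT skin *Kdr* was highest in Cap, and this held in each of the 4 libraries. In Cap it was at 915 and 944 CPM in telogen and 884 and 1026 in anagen (mean 942 ± 61.3, SD, n = 4). EC-Lrat came next with 447 ± 102 CPM, a level whose range stayed below that of Cap. EC-Prnd, Lymph-Cap, EC-Il6 and Lymph-Col followed with means from 313 down to 261 CPM and overlapping ranges, Vein was at 184 CPM and Artery at 97.8 CPM. *Kdr* thus had UMIs in lymphatic as well as blood ECs. After each cell was thinned to 1500 UMIs, 69.2% of 1736 WT Cap cells had a *Kdr* UMI (exact 95% interval 67.0 to 71.4), against 0.997% of 301 T-NK cells, which should lack it. Cells under 1500 UMIs were left out of the thinned shares. With those cells included, median depth was 3964 UMIs in WT Cap and 6289 in WT T-NK cells.

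*Flt1* was also highest on average in Cap, at 1565 and 1703 CPM in telogen and 1185 and 1589 in anagen. Its range in Cap (mean 1511 ± 225, n = 4) overlapped that of EC-Il6 at 1031 ± 277 CPM, and EC-Lrat, Artery and Vein followed at 924, 716 and 615 CPM. Pericytes held 394 CPM, with an EC marker list at 1558 to 3668 summed CPM in the WT libraries. Lymph-Cap and Lymph-Col were at 36.5 and 33.1 CPM.

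*Flt4*, the receptor for VEGF-C, was highest in Lymph-Cap, at 391 and 445 CPM in telogen and 424 and 373 in anagen (408 ± 32.5, n = 4). Lymph-Col was 5.77-fold lower at 70.8 ± 7.34 CPM, and Cap followed at 47.1 ± 10.1 CPM. None of these 3 ranges overlapped. A *Flt4* UMI was found in 41.8% of 648 thinned WT Lymph-Cap cells (38.0 to 45.7) and in 0 of 301 T-NK cells, where a count of 0 allows up to 0.997% of cells with a UMI and sets no limit on cells that express the gene. Lymph-Cap held 42.9 to 83.2% of all *Flt4* UMIs of a library. It had 339 cells in telogen, 414 in anagen and 1008 in Alk1 KO, where it was the largest EC population.

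The co-receptors divided the vessels differently. *Nrp1* was highest in Cap at 754 and 858 CPM in telogen and 799 and 939.9 in anagen (838 ± 80.2, n = 4), 2.36-fold above EC-Prnd and with no overlap. EC-Prnd, EC-Lrat, Proli, Pericyte, Artery, Perineurial, Vein and EC-Il6 ranged from 355 down to 193 CPM, while Lymph-Cap was at 22.4 and Lymph-Col at 5.36 CPM. *Nrp2* was lowest among ECs in Artery, at 24.1 CPM. It was at 374 ± 18.6 CPM in Lymph-Cap and 323 ± 48.6 CPM in Vein, whose ranges overlapped, at 258 in EC-Il6 and 231 in Cap. Lymph-Col, at 79.7 CPM, lay below Lymph-Cap in all libraries. Myeloid cells also carried *Nrp2*, at 206 and 238 CPM in telogen, and held 51.2% and 68.3% of its UMIs in these 2 libraries.

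Among the ligands, *Vegfc* was arterial. Artery cells held 213 and 202 CPM in telogen and 216 and 198 in anagen (207 ± 8.68, n = 4), 6.67-fold above Vein at 31.1 ± 13.8 CPM and without overlap. In each library, Alk1 KO included, 60.2 to 82.8% of all *Vegfc* UMIs came from Artery. A *Vegfc* UMI was seen in 26.3% of 2073 thinned WT Artery cells against 0.332% of T-NK cells. *Vegfa* was highest in Fibroblast cells at 158 ± 27.3 CPM, then in Lymph-Col at 123 ± 5.25 CPM and in Artery at 80.2 ± 9.23 CPM, the latter overlapping Perineurial at 72.4 CPM. Cap held 6.36 to 14.1 CPM of *Vegfa* in the WT libraries, beside the highest *Kdr* level. *Vegfb*, a ligand of VEGFR1, was low throughout and highest in Lymph-Col and Lymph-Cap at 57.0 ± 13.1 and 47.2 ± 11.1 CPM, with overlapping ranges. *Pgf* was highest in the small EC-Prnd cluster (6 to 89 cells a library), at 1135 and 1516 CPM in telogen and 449 and 61.3 in anagen. The spread of *Pgf* there (790.3 ± 657, n = 4) overlapped that of Lymph-Cap at 80.3 ± 41.6 CPM. Lymph-Col had 76.1 CPM of *Pgf* and Artery 41.9 CPM.

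Lymphatic and blood ECs of the same WT libraries were compared with the library as a block (edgeR's quasi-likelihood test with Benjamini-Hochberg adjustment, called at an adjusted p of 0.05 and a fold of 1.3). Between the summed lineages 8 of the 9 VEGF genes were called, where 48% of the 11934 genes tested were. *Flt4*, *Vegfa*, *Vegfb* and *Pgf* were higher in lymphatic ECs, by 3.02 (SE 0.11), 1.57, 2.31 and 1.99 on the log2 scale. *Kdr* was modestly lower there (-0.48, adjusted p = 0.0057, and 0.051 without anagen S1), and *Flt1*, *Nrp1* and *Vegfc* were far lower, at -4.85, -5.18 and -5.26. *Nrp2* (-0.26, adjusted p = 0.040) stayed under the fold threshold. Single populations did not all follow the sums. Mean *Kdr* was higher in Lymph-Col (261 CPM) than in Vein (184) and Artery (97.8). Mean *Vegfa* was lower in Lymph-Cap (32.1 CPM) than in Artery (80.2). EC-Prnd, where *Pgf* was highest (790 CPM), was not among the blood ECs. Of the genes around the receptors, 9 of 32 signal transducers were higher and 12 lower in lymphatic ECs, and 1 of 12 VEGF-induced endothelial genes was higher, *Angpt2* (3.27), and 9 lower, among them *Plvap* (-2.85). *Foxc2* (4.67) and *Itga9* (2.65), both needed for lymphatic valves, were higher.

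Each EC population was also set against the other EC populations of its library. In these tests 61 of 72 gene and population pairs were called, 32 higher and 29 lower, against 21.2% (EC-Prnd) to 51.7% (Lymph-Col) of all genes tested in a population. Artery stood out by *Vegfc* (5.60, SE 0.14, adjusted p = 1.2e-32; 33.6% of all genes called), and was higher for *Vegfa* (2.76) and *Pgf* (1.34) and lower for *Kdr* (-1.71) and *Nrp2* (-2.95). Cap was higher for *Kdr* (1.89), *Flt1* (2.48) and *Nrp1* (2.97), with 25.5% of all genes called. Vein was higher for *Nrp2* (1.28) and *Vegfc* (2.37) and lower for *Flt4* (-2.56). Lymph-Cap was higher for *Flt4* (4.40, SE 0.11) and *Nrp2* (1.32), while Lymph-Col was higher for *Vegfa* (3.41) and *Vegfb* (2.05) and lower for *Nrp1* (-5.26). EC-Prnd was higher for *Pgf* (5.51, SE 0.32). EC-Il6 was higher for *Flt1* (2.08), *Nrp2* (0.96) and *Nrp1* (0.79), with 38.9% of all genes called. EC-Lrat was higher for *Flt1* (1.57), *Nrp1* (1.26) and *Kdr* (0.47), with 26% called. The background was 28.8% in Vein and 29.3% in Lymph-Cap.

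Perineurial cells, which the *Cdh5* driver also marked, carried co-receptor and ligands but little receptor. *Nrp1* was at 249 and 233 CPM in telogen and 208 and 225 in anagen, and *Vegfa* at 66.3 and 56.5, then 73.5 and 93.3 CPM. Against all ECs, 7 of the 9 genes were called, where 63.7% of 13163 genes were. *Kdr*, *Flt1* and *Flt4* were lower by -4.95, -5.09 and -4.86, *Vegfc* by -4.38, *Pgf* by -1.12 and *Nrp2* by -0.67, and *Vegfb* was higher by 0.54, a call lost without either anagen library (adjusted p = 0.11 each). *Nrp1* (-0.27, adjusted p = 0.13) and *Vegfa* (0.59, adjusted p = 0.053) were not called. *Vegfd*, a second ligand of VEGFR3 and not among the 9 genes, was higher in perineurial cells than in ECs by 3.84.

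Receptors of the same population were found together in cells at a rate somewhat above the product of their separate shares. In thinned WT Cap cells, 57.0% of 1736 had both *Kdr* and *Flt1* where the product of the shares was 55.6%, and 49.2% had *Kdr* and *Nrp1* where the product was 47.0%. In WT Lymph-Cap, 21.6% of 648 cells had *Flt4* and *Nrp2* (product 17.4%) and 14.5% had *Kdr* and *Flt4* (product 13.3%). These shares are descriptions of cells thinned to the same depth, and their excess over the products was not tested.

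Genes whose mean log levels over the 16 populations ran most like each member were listed by Pearson's r, among 12406 genes, as a description of populations that share libraries. For *Kdr* these were *Gimap5*, *Tie1* and *Arhgef15* (r = 0.97 each), *Tie1* being a receptor of the angiopoietin system. For *Flt1* they were *Rbp7*, *Vsig2* and *Adgrl4* (0.95 to 0.96), for *Flt4* *Nxn* (0.90), for *Nrp1* *Kifc3* (0.89), for *Nrp2* *Sult1a1* (0.95) and for *Vegfc* *Fam107a* (0.84). *Vegfa*, *Vegfb* and *Pgf* reached 0.83, 0.81 and 0.79 at most, with *Mturn*, *Ethe1* and *Borcs6*.

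Anagen was compared with telogen within each population to ask whether the VEGF genes change between the hair cycle stages. The anagen mice were also older and further from tamoxifen (PD32 against PD20, tamoxifen at PD17), which cannot be told apart from the stage. In the 8 EC populations no member passed the test, 0 of 62 pairs by edgeR and 0 of 62 by DESeq2, with 18 pairs at an unadjusted p under 0.05. Few genes passed in all: 0.207% in Artery, 0.582% in Vein, 0% in Cap, 1.19% in EC-Il6, 0.236% in EC-Lrat, 0% in EC-Prnd, 0.995% in Lymph-Col and 0.412% in Lymph-Cap. Of all genes, those with an unadjusted p under 0.05 ranged from 581 of 6789 in EC-Lrat to 1858 of 9549 in Lymph-Col, with 784 of 8821 in Cap, 192 of 2007 in EC-Prnd, 1496 of 10138 in Artery and 1525 of 8575 in EC-Il6. The receptor levels of Cap given for *Kdr* and *Nrp1* overlapped between the stages. *Flt1* was 1254 and 1271 CPM in EC-Il6 of telogen against 710.1 and 888 in anagen (-0.53, adjusted p = 0.12), and 715 and 741 CPM in Vein against 465 and 538 (-0.42, adjusted p = 0.21). *Pgf* in EC-Prnd differed by -2.19 (adjusted p = 0.31), a cluster of 6 and 13 cells in telogen.

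*Nrp1* in lymphatic ECs came nearest. In Lymph-Cap it was at 8.99 and 12.7 CPM in telogen and at 24.6 and 43.4 CPM in anagen, and in Lymph-Col at 0 and 2.59 against 8.18 and 10.7 CPM. The stages did not overlap in either population, but neither difference was called (1.71, SE 0.41, adjusted p = 0.11, and 2.91, SE 0.73, adjusted p = 0.10). Summed over both populations, a sum chosen after these values were seen, *Nrp1* was at 2.85 and 5.07 CPM in telogen against 12.99 and 22.96 in anagen and was called (2.25, SE 0.39, adjusted p = 0.032; 1.3% of 10387 genes called). Within Lymph-Cap, the cluster EC-6 had 0 and 14.6 CPM in telogen against 49.7 and 58.9 in anagen, and EC-9 had 13.7 and 11.3 against 9.02 and 26.7 CPM. These levels stayed far below those of blood ECs (371 and 386 CPM in telogen). A list of 10 capillary markers moved too, in Lymph-Col from 124 to 147 summed CPM in telogen to 293 to 423 in anagen. Over both lymphatic populations it went from 584 to 798 to 865 to 1010 summed CPM. In Lymph-Cap alone the stages overlapped, at 1527 to 2869 in telogen and 1928 to 2201.5 in anagen. The part of these markers in the result was not tested. The difference between the stage responses of lymphatic and blood ECs was called for 0 of the 9 genes by edgeR, with *Nrp1* nearest (2.24, SE 0.43, adjusted p = 0.14), and for 1 by DESeq2. Of all 11934 genes, 0.0838% were called, and 929 had an unadjusted p under 0.05.

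Outside these 8 EC populations, in Proli (proliferating cells that also carried EC markers) and the other cell types, 2 of the other 45 pairs were called, with 0.426% of all genes called in Proli, 0.0544% in Fibroblast, 0.0419% in Mast and 0% in Pericyte, Schwann and T-NK. *Flt1* rose in Perineurial from 8.77 and 7.78 CPM in telogen to 42.3 and 43.1 in anagen (2.45, SE 0.19, adjusted p = 0.0029; 0.863% of all genes called). *Kdr* rose in Myeloid from 4.40 and 4.76 to 16.6 and 14.9 CPM (2.07, SE 0.25, adjusted p = 0.042; 0.757% of all genes called). EC markers moved with both: the list of 12 EC genes, all 12 with UMIs in each group, went from 361 to 428 summed CPM in telogen Perineurial to 649 to 662 in anagen, and from 94.1 to 94.3 to 274 to 516 in Myeloid. *Pecam1* rose with *Flt1* in Perineurial, from 11.3 and 18.2 to 48.2 and 52.2 CPM. Their part in the result was not tested. Without likely doublets the adjusted p was 0.056 for *Flt1* and 0.16 for *Kdr*, so both calls were lost, and that of *Kdr* also without anagen S1 (adjusted p = 0.081). Within Myeloid, *Kdr* was higher in anagen in clusters 5 (2.66 and 5.54 to 35.3 and 12.7 CPM) and 10 (5.56 and 2.14 to 9.25 and 6.89 CPM), with 2 UMIs each behind the anagen S2 values. The stages overlapped in clusters 15 (0 and 12.8 against 12.7 and 40.7 CPM) and 17 (15.2 and 0.73 against 11.3 and 24.1 CPM).

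Of the genes that act below the receptors, drawn from lists of 35 signal transducers, 12 VEGF-induced endothelial genes and 7 genes of the VEGF-C and VEGF-D axis, few moved between the stages in EC populations. *Plvap*, a component of fenestral diaphragms that VEGF-A induces, rose in Artery (1.45, adjusted p = 0.025), EC-Il6 (1.08, adjusted p = 0.015) and Lymph-Col (1.11, adjusted p = 0.019), and *Hspb1* rose in Lymph-Col (1.14, adjusted p = 0.039). No other gene of these lists was called in the 8 EC populations.

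Alk1 KO was compared with WT telogen, and here the VEGF genes moved widely, in a background where many genes did. In the 8 EC populations 25 of 53 pairs were called, 8 higher and 17 lower. In Cap 4 of 7 members were called where 30.9% of all genes were, in Artery 3 of 9 (17.1%), in Vein 3 of 7 (20.3%), in EC-Il6 2 of 6 (13.1%), in EC-Lrat 4 of 5 (15.3%), in EC-Prnd 0 of 4 (3.95%), in Lymph-Col 4 of 7 (16.5%) and in Lymph-Cap 5 of 8 (16%). The median member differed by -0.70 in Cap where the median gene differed by 0.01, and by -1.08 in Lymph-Cap. The telogen libraries also served the stage comparison, so both share their controls.

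*Pgf*, a ligand of VEGFR1, changed most. In Cap it rose from 9.49 and 21.1 CPM in telogen to 740.3 and 1221 CPM in Alk1 KO (31 against 1751 UMIs), 5.85 higher in log2 (SE 0.35, adjusted p = 6.2e-07), beside 3.71 and 0 CPM in anagen. Both Alk1 KO libraries lay far above all 4 WT libraries. It rose in Artery from 61.8 and 26.2 to 354 and 328 CPM (2.93, SE 0.27, adjusted p = 7.4e-05) and in EC-Il6 from 18.5 and 48.7 to 319.8 and 792 CPM (4.11, SE 0.47, adjusted p = 0.00027). In EC-Lrat there were 0 UMIs in both telogen libraries and 126 in Alk1 KO, at least 14.8-fold higher against 3 counts over the group (adjusted p = 0.0054, and 0.21 without Alk1 KO S2). In EC-Prnd, its WT peak, the difference from 1135 and 1516 to 3615 and 2513 CPM was not called (1.14, adjusted p = 0.062). Lymph-Cap went the other way: *Pgf* fell from 140.4 and 73.1 to 16.2 and 21.7 CPM (-2.58, SE 0.29, adjusted p = 7.8e-05). The lower level lay in the Lymph-Cap cluster EC-9 (212 and 124 against 31.3 and 34.0 CPM), while in EC-6, with 250 and 325 of the 448 and 560 Alk1 KO cells, *Pgf* was at 3.28 and 7.31 in telogen and 1.59 and 10.7 CPM in Alk1 KO. Lymph-Col had 85.5 and 42.9 CPM in telogen and 15.7 and 43.4 in Alk1 KO (-1.15, adjusted p = 0.072).

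The share of Cap cells with a *Pgf* UMI, thinned to 1500 UMIs, was 1.11% and 2.08% in telogen, 0.216% and 0% in anagen and 31.0% and 51.6% in Alk1 KO, so the rise was spread over many cells. In Artery the shares were 2.99% and 2.38% in telogen against 22.0% and 15.9% in Alk1 KO. Alk1 KO T-NK cells had a *Pgf* UMI in 0 of 46 thinned cells, which allows up to 6.52% of cells with a UMI. Their median depth, with cells under 1500 UMIs included, was 6099 UMIs. The rise was present in both Cap clusters, from 2.06 and 0 to 521 and 1013 CPM in EC-1 and from 15.8 and 39.2 to 879.7 and 1449 CPM in EC-2. In Artery it was highest in cluster EC-5, at 856 and 1014 CPM against 140.1 and 69.5 in telogen. Cap held 44.6% and 43.1% of all *Pgf* UMIs in Alk1 KO and 0 to 1.96% in WT libraries.

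*Vegfc*, the arterial ligand, fell in Artery from 213 and 202 CPM in telogen to 68.0 and 93.0 in Alk1 KO (-1.36, SE 0.17, adjusted p = 0.00041). It fell in Vein from 29.999 and 50.8 to 8.71 and 7.51 CPM (-2.28, SE 0.41, adjusted p = 0.0013; 96 against 17 UMIs). Neither pair of groups overlapped, and the WT anagen libraries lay with telogen in Artery. All 3 Artery clusters were lower, from 210.1 and 199 to 76.4 and 109 CPM in EC-4, from 170.4 and 154 to 53.7 and 51.4 CPM in EC-5 and from 335 and 304 to 73.6 and 115 CPM in EC-11. The share of Artery cells with a *Vegfc* UMI was 25.9% and 27.6% in telogen and 7.33% and 11.1% in Alk1 KO.

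*Vegfa* moved in opposite directions in lymphatic and venous ECs. It fell in Lymph-Col from 116 and 123 CPM to 60.2 and 79.9 (-0.83, SE 0.18, adjusted p = 0.0093) and in Lymph-Cap from 32.6 and 46.1 to 17.4 and 12.1 (-1.45, SE 0.32, adjusted p = 0.0083), the latter call lost without telogen S1 (adjusted p = 0.058) or S2 (0.15). The Lymph-Col call was lost with no filter on low counts (adjusted p = 0.12). Its groups overlapped in the cluster EC-3 (126 and 133 against 79.0 and 132 CPM) and EC-13, and did not in EC-8 (110.3 and 80.9 against 42.3 and 29.3 CPM). EC-3 held 162 and 216 of the 361 and 418 telogen cells and 79 and 131 of the 257 and 305 Alk1 KO cells. In Vein it rose from 5.68 and 10.3 to 34.8 and 18.8 CPM (1.79, adjusted p = 0.011; 19 against 59 UMIs), a call lost without Alk1 KO S1 (adjusted p = 0.16) or telogen S1 (adjusted p = 0.069). Artery, with 88.3 and 82.6 against 72.6 and 86.4 CPM, overlapped. *Vegfb* was called in none of the 4 EC populations where it was tested (Artery, Vein, Lymph-Col and Lymph-Cap), with 55.8 and 43.4 against 55.2 and 63.1 CPM in Lymph-Col.

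The receptors of blood capillaries fell together. In Cap *Kdr* fell from 915 and 944 CPM to 590.2 and 540.1 (-0.86, SE 0.20, adjusted p = 0.0055), *Flt1* from 1565 and 1703 to 875 and 840.1 (-1.07, SE 0.20, adjusted p = 0.0016) and *Nrp1* from 754 and 858 to 266 and 285 (-1.69, SE 0.20, adjusted p = 5.5e-05). In each case both Alk1 KO libraries lay below the 4 WT libraries. The 3 genes were lower in both Cap clusters, *Nrp1* for example from 896 and 1038 to 371 and 386 CPM in EC-1. The list of 10 capillary markers, all 10 with UMIs, stood at 19635 to 23884 summed CPM in Alk1 KO Cap and 34257 to 40816 in telogen, while the EC list was at 8266 to 8756 against 8310 to 8668, and the part of this in the result was not tested. Without correction between libraries, where 86.8% of Alk1 KO Cap cells were left unnamed, *Kdr* and *Flt1* in the Cap cells still named differed by 0.05 and 0.07 (adjusted p = 0.94 and 0.91) and *Nrp1* by -0.80 (adjusted p = 0.13), so these 3 calls depend on how Alk1 KO cells were matched to WT capillaries. Without telogen S2 the adjusted p of *Kdr* was 0.055.

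Sums that do not use the names of blood populations were also taken. Over all non-lymphatic ECs, a sum chosen after the data were seen and with 32.8% of 11276 genes called, *Nrp1* fell by 1.34 (adjusted p = 0.00015), *Kdr* by 0.54 (adjusted p = 0.017), *Flt1* by 0.52 (adjusted p = 0.014) and *Vegfc* by 1.67 (adjusted p = 0.00021), and *Pgf* rose by 3.17 (adjusted p = 4.6e-05). *Flt1* was at 1028 and 1033 CPM in telogen, 779.7 and 779.9 in anagen and 748 and 744 in Alk1 KO, and *Kdr* at 369.8 and 368, 407 and 285, and 284 and 243 CPM, so anagen libraries came close to Alk1 KO for both. *Nrp1*, at 144 and 168 CPM in Alk1 KO, lay below the lowest WT library at 291 CPM. These sums also move with the mix of populations.

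*Nrp1* fell also in Vein (-1.04, adjusted p = 0.0017), EC-Il6 (-1.91, SE 0.26, adjusted p = 0.001) and EC-Lrat (-2.31, SE 0.34, adjusted p = 0.0016, and 0.051 without Alk1 KO S1). Without correction between libraries 64.5% of Alk1 KO Vein, 91.6% of EC-Il6, 96.6% of EC-Lrat and 100% of EC-Prnd cells were left unnamed, against at most 4.03% in telogen, so every Alk1 KO value in these 4 populations, *Pgf*, *Vegfc* and *Vegfa* included, also depends on the matching. In Vein the adjusted p of *Nrp1* was then 0.051, and EC-Il6 and EC-Lrat could not be tested. In EC-Il6 the levels were 193 and 223 CPM in telogen and 46.5 and 63.3 in Alk1 KO. Artery had 229 and 218 against 132 and 186 CPM, without a call. In EC-Lrat *Kdr* fell from 457 and 588 to 199 and 152 CPM (-1.59, SE 0.30, adjusted p = 0.0055, and 0.059 and 0.057 without Alk1 KO S1 and S2), and *Nrp2* from 188 and 241 to 48.6 and 111 CPM (-1.36, SE 0.40, adjusted p = 0.041), the latter not without telogen S2 (adjusted p = 0.12) or Alk1 KO S1 (0.17). *Flt1* in Artery (-0.44, adjusted p = 0.049) lost its call with any 1 library left out (adjusted p = 0.058 to 0.26).

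**Figure D1:**
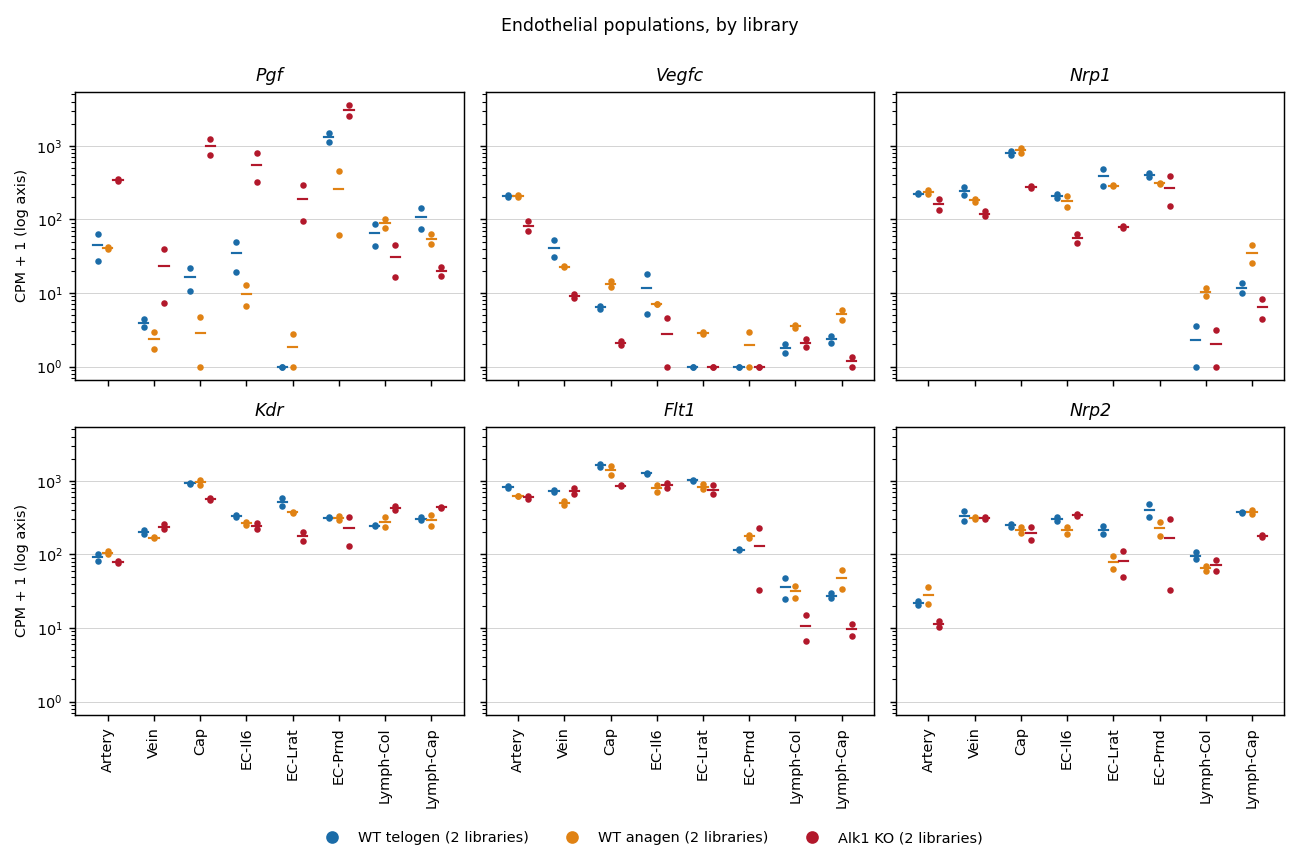
Level (CPM + 1, log axis) of 6 members in 8 EC populations of telogen, anagen and Alk1 KO, 1 point per library. *Pgf* lay at 740.3 and 1221 CPM in Alk1 KO Cap against 9.49 and 21.1 in telogen, and *Nrp1* at 266 and 285 against 754 and 858.

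Lymphatic ECs showed other receptor changes. In Lymph-Col *Kdr* rose from 245 and 247 CPM to 452 and 395 (0.72, SE 0.15, adjusted p = 0.0067) and *Flt4* from 59.9 and 76.0 to 169 and 114 (0.98, SE 0.21, adjusted p = 0.0087), with no overlap of the groups. The *Kdr* call was lost without telogen S1 (adjusted p = 0.054) or S2 (0.055) and the *Flt4* call without Alk1 KO S1 (0.057). With no filter on low counts the adjusted p in Lymph-Col was 0.089 for *Kdr*, 0.16 for *Flt4* and 0.20 for *Flt1*. None of these calls held. The cluster EC-8 made up 38.5% and 37.8% of Lymph-Col cells in telogen and 63.8% and 50.8% in Alk1 KO. The part of this mix in the result was not tested. In Lymph-Cap *Kdr* rose from 289.9 and 321 to 433 and 444 CPM (0.47, SE 0.15, adjusted p = 0.047), a call that was lost with any 1 library left out (adjusted p = 0.071 to 0.27), while *Flt4* stayed uncalled at 391 and 445 against 419 and 429.5 CPM (-0.03, adjusted p = 0.91). Its main clusters differed in opposite directions without overlap, from 442 and 461 to 379 and 392 CPM in EC-6 and from 365 and 435 to 461 and 474 CPM in EC-9, differences that were not tested. *Nrp2* fell in Lymph-Cap from 381 and 362 to 185 and 173 CPM (-1.11, SE 0.15, adjusted p = 0.00034), and was lower in EC-6 (374 and 373 to 145 and 158 CPM) and EC-9 (385 and 356 to 228 and 190.1 CPM). The cluster EC-15, with 7 and 17 cells in Alk1 KO, had no *Nrp2* UMI and too few telogen cells to compare. *Flt1*, already low, fell in Lymph-Col from 24.0 and 47.1 to 14.0 and 5.61 CPM (-1.95, SE 0.45, adjusted p = 0.012) and in Lymph-Cap from 24.7 and 28.6 to 10.5 and 6.90 CPM (-1.67, SE 0.37, adjusted p = 0.0086). The *Flt1* call in Lymph-Cap was lost without likely doublets (-0.77, adjusted p = 0.39) and without either telogen library (adjusted p = 0.10 and 0.12), and that in Lymph-Col without telogen S2 (0.068) or Alk1 KO S2 (0.14). The lymphatic marker list was at 7565 to 7683 summed CPM in Alk1 KO Lymph-Cap and 5257 to 5403 in telogen, and the part of this in the result was not tested.

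In thinned cells, a *Kdr* UMI was found in 31.1% and 29.4% of Lymph-Col cells in telogen and 44.4% and 41.7% in Alk1 KO, and a *Nrp2* UMI in 44.9% and 41.0% of Lymph-Cap cells against 17.4% and 20.4%. The share of Cap cells with *Nrp1* was 62.2% and 69.8% in telogen and 29.1% and 31.0% in Alk1 KO. Cells with both *Kdr* and *Nrp1* made up 15.9% of 358 Alk1 KO Cap cells (product of the shares 13.1%), and cells with both *Kdr* and *Flt4* 8.40% of 524 Alk1 KO Lymph-Col cells (product 7.46%) against 3.11% of 1671 WT cells.

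**Figure D2:**
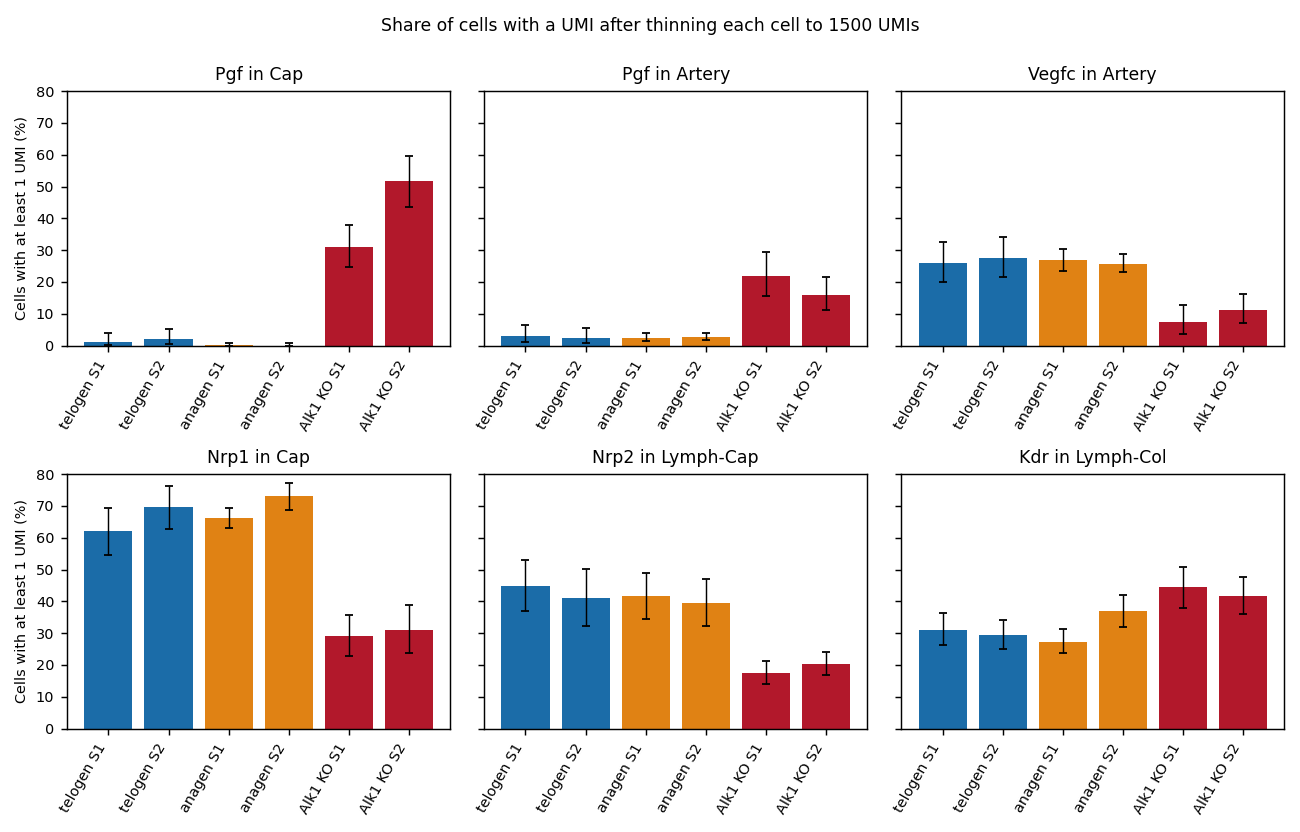
Percent of cells with a UMI of the gene after thinning to 1500 UMIs, by library, with exact 95% intervals (counting error only). *Pgf* in Cap stood at 31.0% and 51.6% in Alk1 KO against 1.11% and 2.08% in telogen, and *Vegfc* in Artery at 7.33% and 11.1% against 25.9% and 27.6%.

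The Alk1 KO differences of lymphatic and blood ECs were compared directly, as the lymphatic minus the blood log2 fold change, and 5 of the 9 genes were called where 19.7% of 12148 genes were. In blood ECs *Pgf* went from 25.9 and 19.9 to 347 and 544 CPM while in lymphatic ECs it went from 103 and 50.3 to 15.997 and 28.9 CPM, a difference of -6.05 (SE 0.22, adjusted p = 1.5e-11). *Kdr* (1.14, SE 0.15, adjusted p = 5e-05) and *Flt4* (1.37, adjusted p = 0.00014) responded more upward in lymphatic than in blood ECs, and *Flt1* (-1.42, adjusted p = 0.0016, and 0.074 without Alk1 KO S2) and *Vegfa* (-1.72, adjusted p = 1.4e-05) more downward. The difference for *Nrp1* was not called (1.19, adjusted p = 0.054). The lymphatic and blood sums also move with the mix of populations. Lymphatic ECs held 779 Lymph-Col and 339 Lymph-Cap cells in telogen, and 562 and 1008 in Alk1 KO. In WT, *Flt4* was at 70.8 CPM in Lymph-Col and 408 in Lymph-Cap, and *Vegfa* at 123 and 32.1 CPM. The part of the mix in these differences was not tested.

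**Figure D3:**
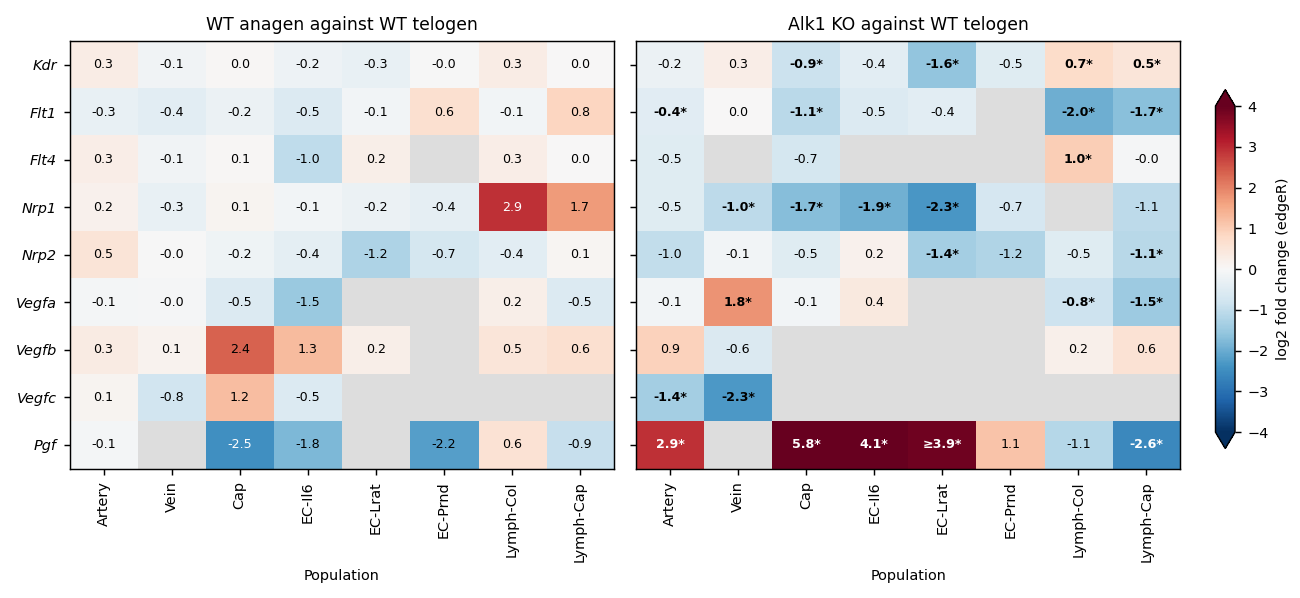
Log2 fold changes of the 9 genes in 8 EC populations, anagen against telogen on the left and Alk1 KO against telogen on the right; an asterisk marks a call, ≥ a lower bound, and grey a pair that was not tested. The left side has 0 asterisks and the right side 25, with *Pgf* at 5.85 in Cap and -2.58 in Lymph-Cap.

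In the other populations 9 of 35 pairs were called in Alk1 KO. In Pericyte *Kdr* fell from 209.7 and 169 to 15.7 and 70.3 CPM (-2.38, SE 0.50, adjusted p = 0.040) and *Pgf* rose from 41.2 and 81.1 to 201 and 549 CPM (2.46, SE 0.49, adjusted p = 0.035), where 5.75% of all genes were called. With all 6 libraries in one fit the adjusted p was 0.058 for *Kdr* and 0.0504 for *Pgf*, and with the stricter cell filter 0.072 for *Kdr*. Likely doublets made up 25% of Pericyte cells. The EC list moved with it, at 2953 to 3668 summed CPM in telogen and 695 to 2101 in Alk1 KO Pericyte, and its part in the result was not tested. In Perineurial *Vegfa* fell from 66.3 and 56.5 to 25.4 and 36.9 CPM (-1.12, SE 0.34, adjusted p = 0.031; 21.6% of all genes called), on 15 UMIs in Alk1 KO. The fibroblast list was at 833 to 919 summed CPM in these cells and at 6408 to 7042 in telogen Perineurial, and its part in the result was not tested. The call was lost without telogen S1 (adjusted p = 0.16), telogen S2 (0.067) or Alk1 KO S1 (0.17). *Nrp1* in Schwann cells was at 234 and 221 CPM in telogen and had 0 UMIs in the 13 cells of Alk1 KO. It was at least 3.13-fold lower (adjusted p = 0.022, and 0.060 without likely doublets, with 5.16% of all genes called). WT anagen was also lower, down to 27.6 CPM (-1.94 against telogen, adjusted p = 0.59). Likely doublets made up 40.5% of Schwann cells. The fibroblast list was at 8627 to 9171 summed CPM in telogen Schwann and 406 to 2743 in Alk1 KO, and its part in the result was not tested. *Flt4* in Myeloid cells rose by 3.74 (SE 0.82, adjusted p = 0.043; 9.19% of all genes called), but 17 of the 18 Alk1 KO UMIs came from S2, and the adjusted p was 0.70 without that library and 0.40 and 0.48 without telogen S1 and S2. T-NK cells had no call, where 0.0338% of all genes had one.

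The cells grouped as Fibroblast in Alk1 KO went against that label in part: the fibroblast list was at 4858 to 4860 summed CPM in them and at 73878 to 82551 in telogen, although most fell in the same cluster. In these 47 and 63 cells *Nrp2* rose from 50.9 and 39.4 to 163 and 217 CPM, *Vegfc* from 13.7 and 8.75 to 55.3 and 38.5 CPM and *Flt1* from 2.02 and 5.05 to 64.5 and 16.2 CPM, while *Pgf* had 3 UMIs in Alk1 KO, a ratio of 0.166 (counting interval 0.0338 to 0.498) to telogen. In all, 37.2% of genes were called there, and a change in fibroblasts cannot be told apart from a different mix of cells. Without likely doublets *Nrp2* was not called (0.54, adjusted p = 0.43), and without Alk1 KO S1 *Flt1* was not (1.76, adjusted p = 0.13). *Vegfc* was not called without telogen S2 (adjusted p = 0.097), nor *Pgf* without Alk1 KO S2 (0.053).

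Downstream of the receptors, the lists moved in both directions in Alk1 KO. The shares of all genes called in each population, given above beside the members, are the background here too. The counts of transducers called lay near these shares in Cap, Lymph-Col and Lymph-Cap. They lay below them in Artery, Vein, EC-Il6 and EC-Lrat. The lists were not tested against this background. In Cap 6 transducers rose and 4 fell of 31 tested (median -0.01), *Plcg1*, the phospholipase that VEGFR2 recruits, rising by 1.34 (adjusted p = 0.0017) and *Hras* falling by 0.88 (adjusted p = 0.0038). Of 10 VEGF-induced genes tested in Cap 4 rose and 3 fell (median 0.12), among them the chemokine receptor *Cxcr4* (4.15, adjusted p = 4.5e-06) and *Plvap* (-2.21, adjusted p = 2e-05). *Cxcr4* rose in EC-Il6 (3.58) and EC-Lrat (4.65) too, and *Plvap* fell in Vein (-0.90), EC-Il6 (-1.59), EC-Lrat (-2.01) and Lymph-Col (-1.16). In Artery 1 of 32 transducers was called, *Prkca* (-1.66), with *Rcan1*, a target of calcineurin signalling, falling by 1.47 (adjusted p = 0.0021). Of the transducers, 3 rose and 1 fell of 31 in Vein, 0 rose and 1 fell of 28 in EC-Il6 and 1 rose and 1 fell of 22 in EC-Lrat. Of the VEGF-induced genes, 1 rose and 3 fell of 8 in Vein, 2 rose and 3 fell of 9 in EC-Il6, 0 rose and 3 fell of 7 in Lymph-Col and 0 rose and 2 fell of 8 in Lymph-Cap. In Lymph-Col 2 transducers rose and 4 fell of 31, *Ptprb*, a phosphatase that restrains VEGFR2 and Tie2, falling by 1.14. In Lymph-Cap 2 rose and 3 fell of 32, with *Nos3* rising by 1.08. *Itga9*, an integrin subunit of the VEGF-C axis needed for lymphatic valves, fell in Cap (-1.67), Lymph-Col (-1.46) and Lymph-Cap (-0.93), and *Foxc2*, a factor of lymphatic valves, rose in Lymph-Cap (1.47) and fell in Artery (-1.89).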

How the data were processed

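Per the labels, the authors aligned reads to mm10 and counted UMIs with Cell Ranger 6.0.1, and the deposited files hold raw counts of UMIs per gene and barcode. Their later steps (Seurat 4.0, Harmony) are not in these counts. Cells with 200 to 5000 genes and under 10% mitochondrial UMIs were kept (scripts in Python 3.11.15 with numpy 2.4.6 and scikit-learn 1.9.0). Clustering used 3000 variable genes, without the members and pathway genes, 30 components, a Harmony-type correction between libraries, 20 neighbours and resolution 0.6. A cluster was named where at least 3 markers and 40% of a list were 2-fold higher and in 25% of cells. UMIs were summed per library and population with at least 5 cells, and tested over all genes with edgeR 4.0.16 (quasi-likelihood, TMM), called at an adjusted p of 0.05 and a fold of 1.3. With 2 libraries a group, an exact permutation test of 1 value cannot go below p = 0.333, so none was run. Intervals and floors (3 counts) cover counting error only. Likely doublets, the top 5% of scores, were kept, and were left out as an alternative. All 9 members were described, and pathway genes were named by their count per list and by the 2 called genes of smallest adjusted p. Members, lists and tests were chosen with earlier results of these data known. The scripts were tested on simulated data.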

Additional observations from a re-analysis of the deposited data

Results flagged for a closer look

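The Alk1 KO response differed between lymphatic and blood ECs for 5 members, by a test of the difference itself (edgeR, interaction of lineage and genotype). The lymphatic minus the blood log2 fold change was 1.137 for *Kdr* (adjusted p = 5e-05), -1.418 for *Flt1* (adjusted p = 0.0016, and 0.074 without Alk1 KO S2), 1.374 for *Flt4* (adjusted p = 0.00014), -1.716 for *Vegfa* (adjusted p = 1.4e-05) and -6.052 for *Pgf* (adjusted p = 1.5e-11). Of all 12148 genes tested, 19.7% were called. With 2 mice a group, age, time since tamoxifen, strain, genotype and the dataset of origin cannot be told apart in these differences. The sums also move with the mix of populations. Lymph-Cap cells went from 339 in telogen to 1008 in Alk1 KO, and Lymph-Col cells from 779 to 562. The part of the mix was not tested. Groups of 2 were not tested for samples that stand apart.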

How the results depend on the processing

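In Alk1 KO, 34 gene and population pairs passed, and 24 to 37 under the alternatives, 24 to 34 of these without 1 library. Calls of *Pgf* in Artery, Cap, EC-Il6 and Lymph-Cap, of *Vegfc* in Artery and Vein and of *Nrp1* in EC-Il6 held under each alternative run, 7 of 34, although EC-Il6 could not be tested without correction between libraries. Directions reversed for *Kdr* (0.051) and *Flt1* (0.070) in Cap without correction between libraries. The pairs called between the stages were 2, and 18 with no filter on low counts, 0 when cells needed 500 genes and had under 5% of UMIs from mitochondria, 1 at resolution 1.2, 1 without correction between libraries, 1 with all 6 libraries in one fit, and 6 to 10 without 1 library. Of these, 0 of 62 in EC populations became 6 with no filter, 2 without likely doublets and 2 to 6 without 1 library, where the lone library is assumed to vary like the other group. The stage difference between lineages, 0 genes, became 1 by DESeq2, 1 with no filter, 1 without likely doublets, and 0 to 1 without 1 library. Mean levels per cell gave 449 for *Flt4* in Lymph-Cap and 267 for *Vegfa* in Fibroblast, against 408 and 158 CPM. Thinning to 3000 UMIs, or none, moved the share of *Kdr* in Cap to 84.5% and 84.8% and of *Flt4* in Lymph-Cap to 63.2% and 69.2%, and thinning to 3000 moved that of *Pgf* in Alk1 KO Cap from 39.9% to 49.3%. Over all genes, calls between the stages were 533, and 1329 by DESeq2 and 4676 with no filter. Those in Alk1 KO were 17388, and 10689 by DESeq2. On CPM, without TMM, the median gene differed from telogen by over 0.1 on the log2 scale in 8 Alk1 KO populations. It differed by 0.16 in Cap and 0.47 in Fibroblast, for example. Between the stages it differed by -0.16 in EC-Il6 and -0.25 in Myeloid, for example. All called directions were the same on CPM. The cause of these differences of the median gene was not tested.

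The replicate numbers S1 and S2 are in the labels of each group. The deviations of same-numbered libraries had a correlation of -0.0716 between telogen and anagen and 0.0204 between telogen and Alk1 KO. This cannot show whether same-numbered libraries were handled together, and the main comparisons of groups used no replicate block. With the replicate block, 8 pairs were called between the stages, 3 of them in EC populations (*Flt1* in EC-Il6, *Nrp2* in EC-Lrat and *Nrp1* in Lymph-Col), and 34 in Alk1 KO. The block raised the stage calls over all genes to 1660.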
